A study of Mus musculus with 12 samples.

Results

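The p53 target genes described here are 32 named genes, Trp53 itself and 31 genes known as its transcriptional targets, read in sorted mouse mammary epithelial cells that carry an MMTVRANK transgene or are wild type. The members were found by matching their symbols to the count table, which holds 53735 gene symbols, and all 32 were present. They were sorted by textbook role into p53 and its feedback loop (6 genes), apoptosis (8), DNA repair and nucleotide supply (5), stress and metabolism (7), growth arrest and stress kinases (3), and spindle and G2/M genes (3). Cdkn1a, the best known target, is not among the 32 and is given with other targets below.

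p53 is a transcription factor that DNA damage, nucleotide shortage and oncogene activity stabilise, chiefly by blocking its destruction by the ubiquitin ligase Mdm2. It binds response elements made of a pair of copies of a degenerate decamer and induces genes that arrest the cell cycle, repair DNA, limit metabolism or start apoptosis, and Mdm2 is itself a target that closes a negative feedback loop. Several targets also have other regulators: Perp is a target of p63 in stratified epithelia, and spindle genes rise with the cell cycle through CHR and CCAAT promoter elements.

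The series holds 12 RNA-seq libraries in 4 groups of 3: MMTVRANK luminal, WT luminal, MMTVRANK basal and WT basal cells. In the MMTVRANK genotype the mouse mammary tumour virus promoter, active mainly in mammary epithelium, drives Rank, the receptor for RANKL encoded by Tnfrsf11a. WT stands for wild type. Live cells were sorted from digested mammary glands on CD24 and CD49f, surface proteins that separate luminal from basal cells, and total RNA was amplified with a low-input stranded kit. Age, strain and reproductive state were not given in the sources used here, and the labels do not say whether replicates came from separate animals, so p-values measure the spread between these libraries. The comparisons asked whether the members differed between genotypes in each population, between populations in each genotype, and whether the genotype difference itself differed between populations.

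Total counts ran from 12459547 to 15069578 per library, and levels are given as CPM, the usual counts scaled to a common library size, here with trimmed-mean factors. Tnfrsf11a stood at 319, 156 and 238 CPM in MMTVRANK luminal libraries, against 6.36, 90.8 and 9.91 CPM in WT luminal libraries. It stood at 415, 129 and 218 CPM in MMTVRANK basal libraries, against 73.7, 158 and 65.3 CPM in WT basal libraries. The WT replicate 2 libraries therefore held more Rank RNA than the other WT libraries, the basal groups overlapped, and neither genotype difference in Tnfrsf11a passed the test (adjusted p = 0.224 in luminal and 0.977 in basal cells). Without WT luminal replicate 2, the luminal difference in Tnfrsf11a was 4.87 on the log2 scale and passed. For both WT replicate 2 libraries the title and the cell subtype field name opposite populations; titles were used, and the markers sided with them. Summed luminal markers were 6970 to 12400 CPM in MMTVRANK luminal, 14700 to 20700 CPM in WT luminal, 294 to 402 CPM in MMTVRANK basal and 541 to 547 CPM in WT basal libraries. MMTVRANK luminal replicate 3 stood apart by its leukocyte markers, which summed to 1070 CPM against 125 and 158 CPM in the other MMTVRANK luminal libraries and 122 to 142 CPM in WT luminal libraries, and none of the 12 markers was at 0 in it. Its basal markers summed to 364 CPM, against 65.7 and 97.8 CPM in the other MMTVRANK luminal libraries. In basal cells, MMTVRANK replicate 3 had a leukocyte sum of 210 CPM, against 23.7 and 29.3 CPM in the other MMTVRANK libraries, and WT replicate 1 a fibroblast sum of 2770 CPM, against 527 and 269 CPM in the other WT libraries. In bulk RNA, fewer cells of a type and less RNA per cell cannot be told apart.

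Promoter sequences, the 250 bases before and 50 bases after an annotated start, were taken from RefSeq (GRCm38.p6) and were found for 25 of the 32 members, in 34 windows. The p53 decamer consensus, searched on both strands with no mismatch, matched in 13 of the 34 windows (38.2%), against 8.36% of all 32851 promoter windows of that length. A pair of decamers with a spacer of up to 13 bases, at most 2 mismatches and its core C and G kept, matched in 6 windows (17.6%), against 4.09% of all windows. The members were picked as p53 targets, so this excess describes the choice of genes, and a match is a description, not a site. The 6 windows are printed because they join the textbook element to members that differ in their measured pattern: Ccng1, Bax and Rps27l were higher in luminal cells, Sesn1 was not called between populations, and Ckap2 and Gtse1 were lower in WT luminal cells. Capitals mark the pair of decamers, a spacer stays in lower case, and the Rps27l window also has a single decamer in capitals 210 bases before the start. Each sequence runs 5′ to 3′ on the gene's strand.
Ccng1: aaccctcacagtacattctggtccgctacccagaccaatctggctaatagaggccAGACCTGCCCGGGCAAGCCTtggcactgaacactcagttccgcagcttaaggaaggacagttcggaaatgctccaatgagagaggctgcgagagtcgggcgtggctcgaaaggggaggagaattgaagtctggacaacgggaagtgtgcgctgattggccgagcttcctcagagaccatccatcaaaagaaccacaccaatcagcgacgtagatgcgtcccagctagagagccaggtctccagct
Bax: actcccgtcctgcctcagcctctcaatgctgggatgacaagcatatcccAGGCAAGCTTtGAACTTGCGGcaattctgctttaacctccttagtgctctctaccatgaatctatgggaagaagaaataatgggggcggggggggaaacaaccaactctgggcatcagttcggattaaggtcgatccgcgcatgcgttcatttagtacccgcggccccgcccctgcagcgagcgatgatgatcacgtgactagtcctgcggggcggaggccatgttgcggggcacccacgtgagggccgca
Sesn1: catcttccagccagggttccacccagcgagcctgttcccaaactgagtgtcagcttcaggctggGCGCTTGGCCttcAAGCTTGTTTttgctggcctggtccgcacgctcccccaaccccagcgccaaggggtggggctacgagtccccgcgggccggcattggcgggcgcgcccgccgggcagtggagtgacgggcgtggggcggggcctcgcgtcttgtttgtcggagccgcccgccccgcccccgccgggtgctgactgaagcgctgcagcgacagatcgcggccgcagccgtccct
Rps27l: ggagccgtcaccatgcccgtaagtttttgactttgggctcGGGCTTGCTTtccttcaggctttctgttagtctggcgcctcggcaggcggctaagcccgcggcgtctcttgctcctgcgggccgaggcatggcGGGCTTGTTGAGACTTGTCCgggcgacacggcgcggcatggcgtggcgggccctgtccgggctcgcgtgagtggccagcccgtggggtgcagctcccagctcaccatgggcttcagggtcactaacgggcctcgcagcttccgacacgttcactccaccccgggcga
Ckap2: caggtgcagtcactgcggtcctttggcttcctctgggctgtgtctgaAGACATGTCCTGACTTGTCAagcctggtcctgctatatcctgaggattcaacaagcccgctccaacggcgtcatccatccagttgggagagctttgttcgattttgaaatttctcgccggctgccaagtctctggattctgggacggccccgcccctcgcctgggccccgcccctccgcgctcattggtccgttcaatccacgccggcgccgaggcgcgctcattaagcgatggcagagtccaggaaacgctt
Gtse1: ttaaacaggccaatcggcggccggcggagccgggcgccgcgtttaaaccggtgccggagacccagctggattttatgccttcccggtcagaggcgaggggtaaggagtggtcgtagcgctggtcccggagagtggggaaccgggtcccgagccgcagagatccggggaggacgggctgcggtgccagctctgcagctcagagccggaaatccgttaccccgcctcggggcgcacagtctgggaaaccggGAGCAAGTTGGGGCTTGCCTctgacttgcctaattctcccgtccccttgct

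The Ccng1 window is chr11:40755237-40755536 on the minus strand, and its pair of decamers has 1 mismatch and begins 195 bases before the start. The Bax window is chr7:45466849-45467148 (minus strand), with 2 mismatches, a 1-base spacer and a beginning 201 bases before the start. The Sesn1 window is chr10:41887189-41887488 (plus strand), with 2 mismatches, a 3-base spacer and a beginning 186 bases before the start. The Rps27l window is chr9:66946163-66946462 (plus strand), with 1 mismatch and a beginning 117 bases before the start. The Ckap2 window is chr8:22185770-22186069 (minus strand), with 2 mismatches and a beginning 203 bases before the start. The Gtse1 window is chr15:85859696-85859995 (plus strand), where the match has 1 mismatch and begins 1 base before the start. Cell-cycle elements were searched as CHR (TTTGAA or TTCGAA) and as CCAAT, on both strands. CHR matched in 20.6% of member windows and 19.2% of all windows, CCAAT in 61.8% and 37.4%, and both together in 17.6% and 7.52%. Ckap2 held CHR 101 bases and CCAAT 20 bases before its start, and a Psrc1 window held them 30 and 75 bases before its start. Aen, Ercc5 and Gdf15, which are not spindle genes, also held both, and neither Gtse1 window held CHR. No match in a window says only that these letters are not there.

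Per kilobase of exon, the members with the highest mean in luminal cells of both genotypes were Btg2, an antiproliferative immediate-early gene, and Plk2, a stress-induced kinase. Btg2 averaged 218 CPM per kb in MMTVRANK luminal, 177 in WT luminal, 306 in MMTVRANK basal and 193 in WT basal cells, and Plk2 averaged 102, 85.8, 76.8 and 87.3 CPM per kb in the same groups. Perp, a desmosome-associated membrane protein that promotes apoptosis, averaged 284 CPM per kb in MMTVRANK basal cells, second after Btg2, and 298 CPM per kb in WT basal cells, first among the members. Rps27l, a ribosomal-protein-like gene linked to p53 turnover in human cells, averaged 84.4 CPM per kb in MMTVRANK luminal and 81.7 CPM per kb in WT luminal cells. Gdf15, a secreted stress cytokine, averaged 0.195 CPM per kb in MMTVRANK luminal and 0.329 CPM per kb in WT luminal cells, and Ddit4l, an inhibitor of mTOR signalling, 0.76 and 0.396 CPM per kb. Gdf15 and Ddit4l went down to 2 counts in a library, Gtse1 to 5 and Bbc3 to 8, so their values carry the largest counting error.

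**Figure D1:**
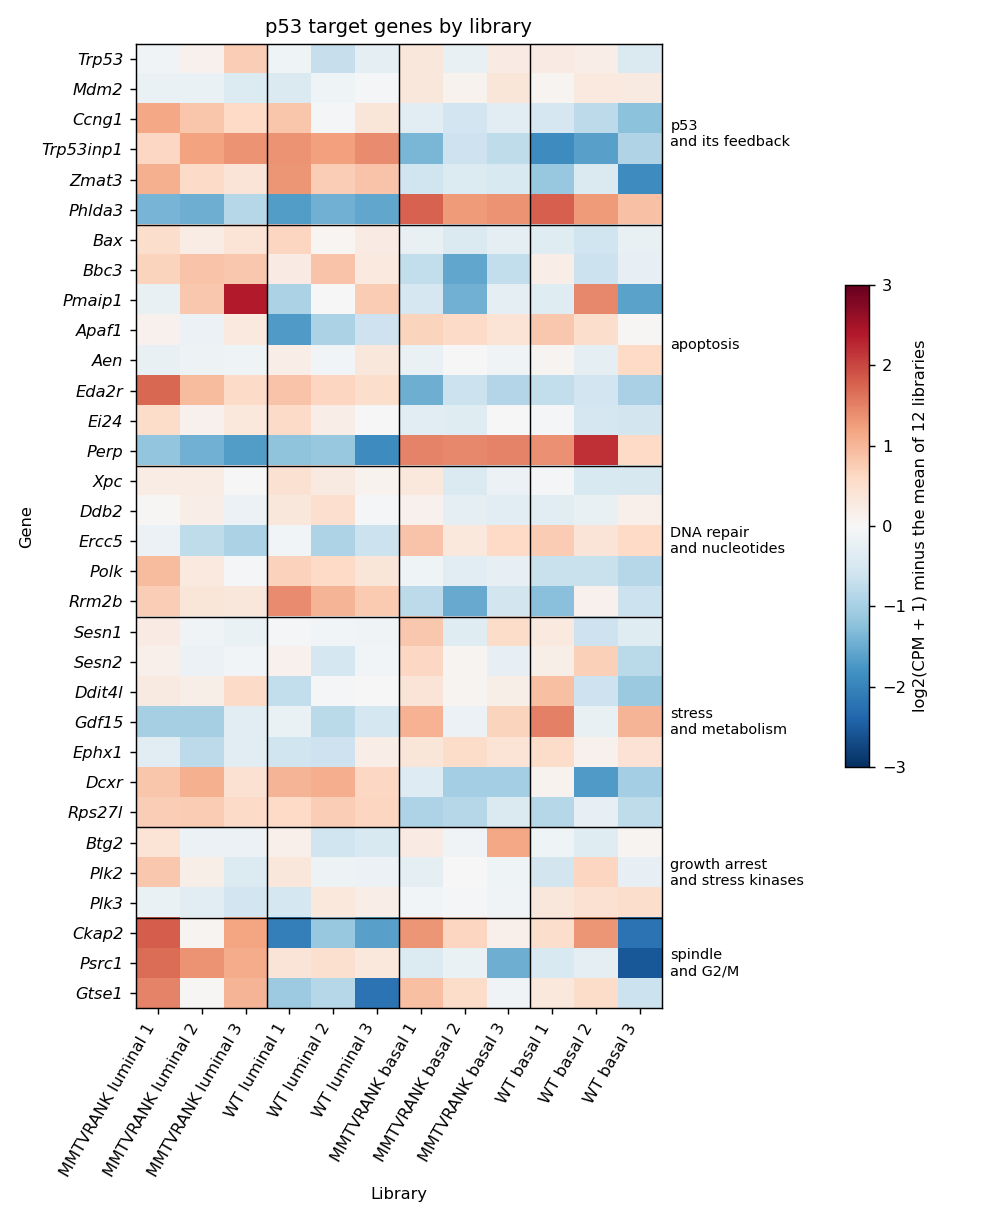
Each row is 1 of the 32 p53 target genes, grouped by role, and each column 1 of the 12 libraries; colour gives the library's log2(CPM + 1) level as a difference from the gene's mean over all libraries. Blocks of like colour follow the luminal and basal columns in genes such as Trp53inp1, Phlda3 and Perp, while Ckap2, Psrc1 and Gtse1 vary between libraries of 1 population.

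More members were called between populations than between genotypes, and the same was so over all genes tested. Of all genes, 0.252% were called between luminal genotypes and 0.00548% between basal genotypes. Between WT luminal and WT basal cells 19 of the 32 members passed edgeR's quasi-likelihood test at an adjusted p of 0.05, 11 higher and 8 lower in luminal cells; over all 18236 genes tested, 38.1% were called, 18% higher and 20% lower. At an unadjusted p under 0.05 there were 21 members, where 46.7% of all genes reached that level, and the luminal and basal libraries separated in 20 members (13 higher, 7 lower), where 46.1% of all genes separated (22.3% higher, 23.8% lower). Between MMTVRANK luminal and MMTVRANK basal cells 17 of the 32 passed, 11 higher and 6 lower, where 33.2% of all genes were called (16.1% higher, 17% lower). At an unadjusted p under 0.05 there were 19, where 42.3% of all genes reached that level, and the libraries separated in 21 members (13 higher, 8 lower), where 54.5% of all genes separated (27.7% higher, 26.8% lower). The members did not move one way: their median luminal over basal log2 fold change was 0.32 in MMTVRANK cells and -0.02 in WT cells, against 0.05 and -0.07 over all genes tested. Their median size without sign was 0.73 in MMTVRANK and 0.98 in WT cells, against 0.78 and 0.85 over all genes. Called in both genotypes and in the same direction were 14 members, with 9 higher in luminal cells (Ccng1, Trp53inp1, Zmat3, Bax, Eda2r, Polk, Rrm2b, Dcxr and Rps27l) and 5 lower (Mdm2, Phlda3, Perp, Ercc5 and Ephx1). Over all genes, 4941 of 18236 were called in both genotypes in the same direction, 2326 higher and 2615 lower in luminal cells. The 14 members are 82.4% of the MMTVRANK calls and 73.7% of the WT calls, where the shares over all genes were 81.7% and 71.2%.

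**Figure D2:**
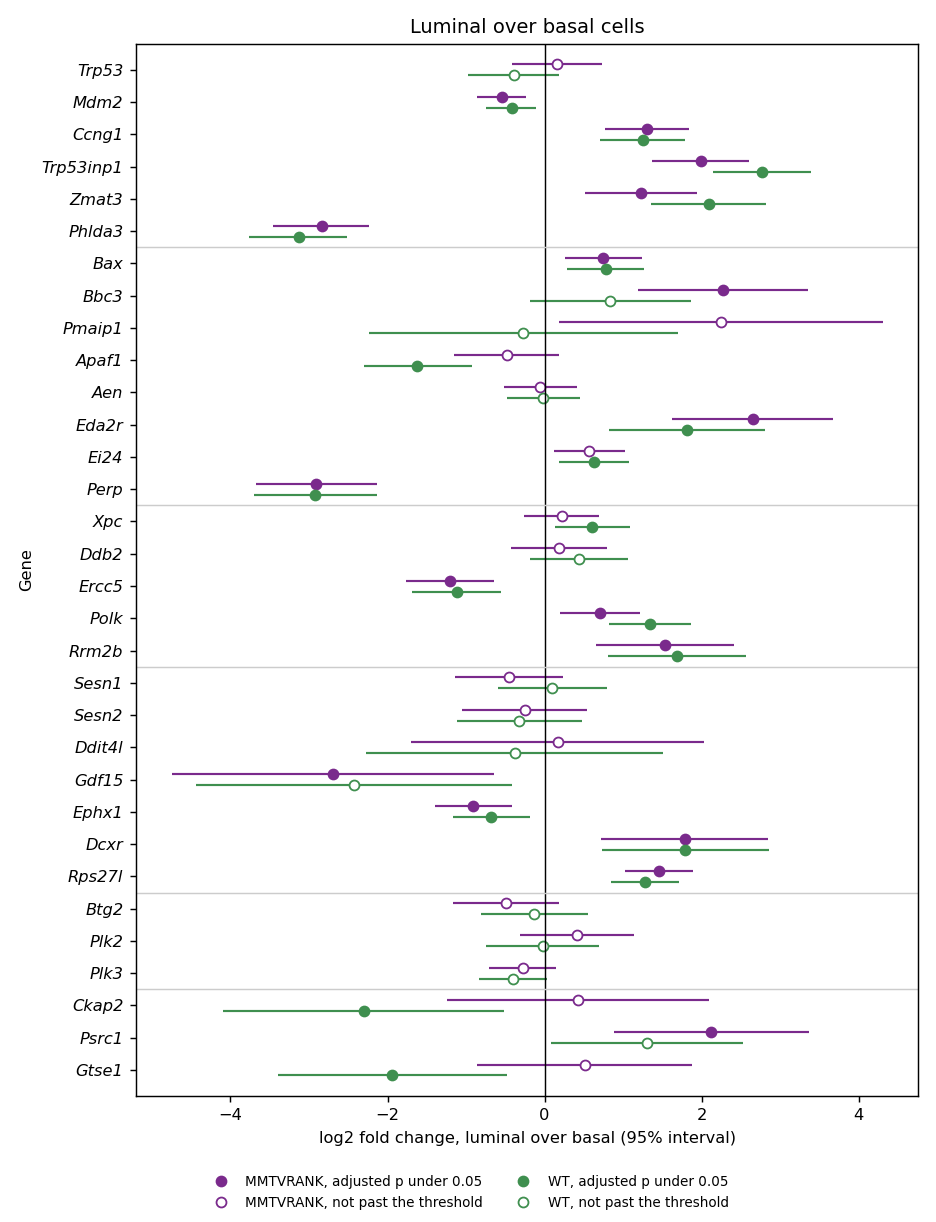
Points are luminal minus basal log2 fold changes of the 32 members with their 95% intervals, drawn for MMTVRANK and WT cells, and filled points passed edgeR's test. Of the members, 14 lie on the same side of 0 with both points filled.

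In the feedback group, 5 of 6 genes were called in each genotype, where 33.2% of all genes were called in MMTVRANK and 38.1% in WT cells. Trp53inp1, a cofactor that promotes p53-dependent cell death and autophagy, had the largest rise of the members in WT cells. It stood at 191, 286 and 316 CPM in MMTVRANK luminal libraries, against 47.4, 79.7 and 72.9 CPM in MMTVRANK basal libraries. The WT values were 313, 290 and 332 CPM in luminal libraries, against 32.4, 39.3 and 65.3 CPM in basal libraries. Every luminal library was above every basal library in both genotypes, and the log2 fold change was 1.99 (SE 0.28, adjusted p = 0.000174) in MMTVRANK and 2.77 (SE 0.29, adjusted p = 1.79e-05) in WT cells.

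Phlda3, a repressor of Akt signalling, ran the other way. It had 6.40, 6.01 and 9.72 CPM in MMTVRANK luminal libraries, against 65.0, 46.0 and 48.4 CPM in MMTVRANK basal libraries. In WT libraries it had 5.09, 6.10 and 5.59 CPM in luminal cells, against 66.4, 46.2 and 34.8 CPM in basal cells. The groups were far apart in both genotypes, with log2 fold changes of -2.84 (SE 0.28, adjusted p = 1.1e-05) in MMTVRANK and -3.13 (SE 0.29, adjusted p = 6.62e-06) in WT cells.

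Ccng1, a cyclin G that works with Mdm2, stood at 182, 143 and 123 CPM in MMTVRANK luminal libraries, against 63.5, 53.6 and 63.7 CPM in MMTVRANK basal libraries. Its WT values were 145, 78.0 and 103 CPM in luminal libraries, against 56.8, 46.4 and 34.0 CPM in basal libraries. All luminal libraries were higher, by 1.31 (SE 0.25, adjusted p = 0.00145) in MMTVRANK and 1.25 (SE 0.25, adjusted p = 0.00179) in WT cells on the log2 scale. Zmat3, an RNA-binding splicing regulator, rose in luminal cells by 1.23 (SE 0.33) in MMTVRANK and 2.09 (SE 0.34) in WT cells. Mdm2 was the steadiest member within groups, with a pooled within-group SD of 0.15 on the log2(CPM + 1) scale. Mdm2 was lower in luminal cells by small amounts. It had 99.2, 99.3 and 86.6 CPM in MMTVRANK luminal libraries, against 145, 123 and 147 CPM in MMTVRANK basal libraries (log2 fold change -0.54, SE 0.15, adjusted p = 0.0124). The WT luminal libraries had 84.9, 105 and 111 CPM, against 121, 142 and 139 CPM in WT basal libraries (-0.42, SE 0.15, adjusted p = 0.0374). Trp53 mRNA was not called between populations, with log2 fold changes of 0.16 (95% interval -0.41 to 0.73) in MMTVRANK and -0.39 (-0.97 to 0.18) in WT cells.

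**Figure D3:**
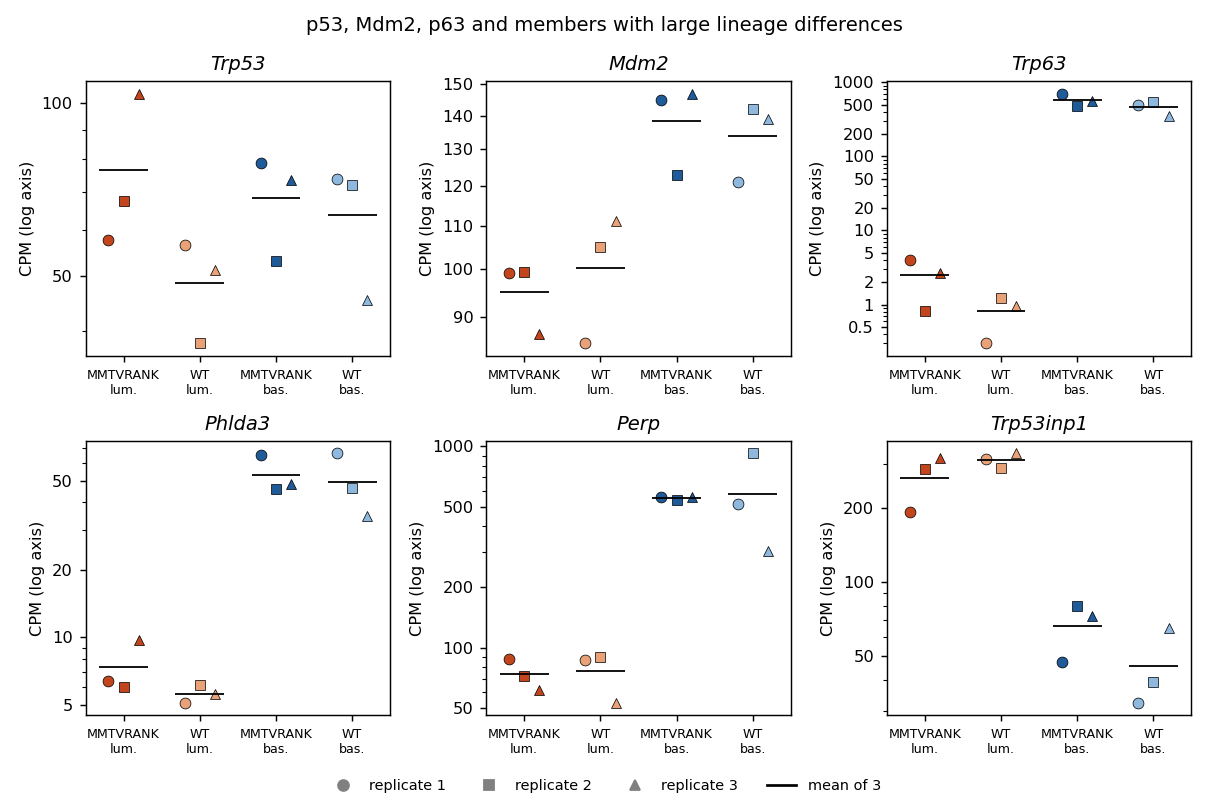
Each point is 1 library's level in CPM on a log axis for Trp53, Mdm2, Phlda3, Perp, Trp53inp1 and the basal factor gene Trp63, with the 4 groups side by side and a bar at each group's mean. Luminal and basal libraries do not overlap except for Trp53, where the groups lie across each other.

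Among apoptosis genes the luminal cells were higher for Bax and Eda2r and lower for Perp in both genotypes. Perp had 87.9, 72.6 and 61.5 CPM in MMTVRANK luminal libraries, against 562, 542 and 560 CPM in MMTVRANK basal libraries. In WT cells it had 86.8, 89.9 and 53.2 CPM in luminal libraries, against 517, 925 and 301 CPM in basal libraries. The groups did not overlap, WT basal libraries were the most spread, and the log2 fold change was -2.91 (SE 0.36, adjusted p = 6.98e-05) in MMTVRANK and -2.92 (SE 0.36, adjusted p = 6.46e-05) in WT cells. Trp63, which encodes the p63 factor of basal epithelium, had 4.02, 0.831 and 2.69 CPM in MMTVRANK luminal libraries, against 704, 471 and 555 CPM in MMTVRANK basal libraries. In WT libraries Trp63 had 0.299, 1.21 and 0.953 CPM in luminal cells, against 497, 548 and 350 CPM in basal cells, and its part in the Perp difference was not tested.

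Eda2r, a death-receptor-family member that binds ectodysplasin A2, had 16.4, 9.14 and 6.80 CPM in MMTVRANK luminal libraries, against 0.908, 2.36 and 1.88 CPM in MMTVRANK basal libraries. Its WT values were 8.61, 7.31 and 6.67 CPM in luminal libraries, against 2.17, 2.52 and 1.71 CPM in basal libraries. Luminal libraries were all higher, by 2.65 (SE 0.47, adjusted p = 0.000953) in MMTVRANK and 1.81 (SE 0.46, adjusted p = 0.00796) in WT cells on the log2 scale. Bax, the pore-forming BCL-2 family protein, rose in luminal cells by 0.75 (SE 0.22) in MMTVRANK and 0.78 (SE 0.22) in WT cells. Bbc3, which encodes the BH3-only protein PUMA, had 6.81, 7.86 and 7.62 CPM in MMTVRANK luminal libraries, against 1.97, 0.675 and 1.96 CPM in MMTVRANK basal libraries, without overlap (2.27, SE 0.50, adjusted p = 0.0038). In WT cells Bbc3 had 4.86, 7.87 and 5.08 CPM in luminal libraries, against 4.64, 2.16 and 3.17 CPM in basal libraries, and was not called (0.84, 95% interval -0.19 to 1.87). Apaf1, the scaffold of the apoptosome, had 18, 14.4 and 20.4 CPM in MMTVRANK luminal libraries, against 26.8, 24.8 and 22 CPM in MMTVRANK basal libraries (-0.48, 95% interval -1.15 to 0.19). Its WT luminal libraries had 4.34, 8.09 and 10.4 CPM, against 29.5, 23.9 and 16.9 CPM in WT basal libraries, and Apaf1 fell (-1.62, SE 0.32, adjusted p = 0.00161). The difference between genotypes in these population effects was tested and passed for neither gene.

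The DNA repair group split by enzyme. Rrm2b, the p53-inducible subunit of ribonucleotide reductase, had 19, 14.3 and 14.1 CPM in MMTVRANK luminal libraries, against 5.97, 3.20 and 7.21 CPM in MMTVRANK basal libraries. In WT cells it had 30.8, 23.1 and 19.5 CPM in luminal libraries, against 4.02, 12 and 6.67 CPM in basal libraries. Luminal libraries were all higher, by 1.53 (SE 0.41, adjusted p = 0.0114) in MMTVRANK and 1.69 (SE 0.40, adjusted p = 0.00564) in WT cells. Polk, a translesion DNA polymerase, rose in luminal cells by 0.71 (SE 0.24) in MMTVRANK and 1.34 (SE 0.24) in WT cells. Ercc5, the nuclease that cuts 3′ of a lesion in nucleotide excision repair, had 41.6, 27.4 and 23.9 CPM in MMTVRANK luminal libraries, against 85.2, 58.1 and 70.9 CPM in MMTVRANK basal libraries. Its WT values were 44.0, 24.2 and 29.8 CPM in luminal libraries, against 79.8, 61.9 and 71.7 CPM in basal libraries. The groups did not overlap, and the luminal over basal log2 fold change of Ercc5 was -1.21 (SE 0.26, adjusted p = 0.00345) in MMTVRANK and -1.12 (SE 0.26, adjusted p = 0.00476) in WT cells. Xpc and Ddb2, both lesion sensors of the same pathway, differed little: Xpc was called in WT cells alone (0.61, SE 0.22, adjusted p = 0.0445) and Ddb2 in neither genotype. The kit is stranded but the counting command in the file header named no strand option, so reads of the 652 bases, 23.8% of Ddb2's exons, that overlap the opposite-strand gene Acp2 cannot be told apart. Opposite-strand genes also overlap 734 exon bases of Rrm2b (8.04%), 324 of Ei24 (6.66%) and 84 of Plk3 (3.32%). Same-strand genes overlap 192 exon bases of Bax (12.2%) and 72 of Ephx1 (3.69%).

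In the stress and metabolism group Rps27l and Dcxr were higher and Ephx1 lower in luminal cells of both genotypes. Rps27l had 71.1, 72.2 and 63.3 CPM in MMTVRANK luminal libraries, against 21.6, 22.7 and 30.8 CPM in MMTVRANK basal libraries. Its WT values were 63.6, 70.2 and 66.3 CPM in luminal libraries, against 22.7, 35.4 and 24.1 CPM in basal libraries. The luminal libraries lay close together and far above the basal ones, with log2 fold changes of 1.46 (SE 0.20, adjusted p = 0.000135) in MMTVRANK and 1.28 (SE 0.20, adjusted p = 0.000322) in WT cells. Rps27l resembles its paralog Rps27, and how the counting split reads between them was not tested. Dcxr, a carbonyl reductase, rose in luminal cells by 1.79 (SE 0.49) in each genotype. Ephx1, a microsomal epoxide hydrolase, was lower in luminal cells, with log2 fold changes of -0.91 (SE 0.23) in MMTVRANK and -0.68 (SE 0.23) in WT cells. Gdf15 had 0.136, 0.128 and 0.82 CPM in MMTVRANK luminal libraries, against 3.63, 1.01 and 2.59 CPM in MMTVRANK basal libraries, without overlap (-2.69, SE 0.95, adjusted p = 0.0447). In WT cells it had 0.973, 0.284 and 0.572 CPM in luminal libraries, against 5.41, 0.936 and 3.59 CPM in basal libraries, and was not called (-2.43, adjusted p = 0.0556). The sestrins Sesn1 and Sesn2, which restrain mTOR, and Ddit4l were called in neither genotype, and neither were Btg2, Plk2 or Plk3.

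Of the 19 WT calls, 11 held in each of 19 alternative settings, and of the 17 MMTVRANK calls, 9 did. Without WT luminal replicate 1 the WT count fell to 12. In WT cells Mdm2 lost its call without any of 8 libraries (log2 fold change -0.45 to -0.31), the exceptions being MMTVRANK luminal replicate 3, WT luminal replicate 3, MMTVRANK basal replicate 2 and WT basal replicate 1. Xpc lost its WT call without any of 7 libraries (0.52 to 0.63), namely MMTVRANK luminal replicates 1 and 2, WT luminal replicates 1 and 2, MMTVRANK basal replicate 3, and WT basal replicates 2 and 3. The WT call of Bax ended without WT luminal replicate 1 or WT basal replicate 2 (0.60 to 0.69), and that of Ei24, an endoplasmic reticulum protein of apoptosis and autophagy, without those or WT basal replicate 3 (0.46 to 0.57). Ephx1 lost its WT call without WT luminal replicates 1 or 2 or WT basal replicates 1 or 3 (-0.65 to -0.53). Gdf15 gained a WT call without MMTVRANK luminal replicate 3 or WT basal replicate 2 (-2.86 to -2.41).

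In MMTVRANK cells the call of Mdm2 ended without MMTVRANK basal replicates 1 or 3 (-0.50 to -0.49), that of Zmat3 without MMTVRANK luminal replicate 1 (0.99), that of Rrm2b without MMTVRANK basal replicate 2 (1.26) and that of Dcxr without MMTVRANK basal replicates 2 or 3 (1.65 to 1.66). Bax lost its call without MMTVRANK luminal replicates 1 or 3 or any MMTVRANK basal library (0.67 to 0.80). Polk lost its call without MMTVRANK luminal replicates 1 or 2, WT luminal replicate 2 or any MMTVRANK basal library (0.38 to 0.79). Gdf15 lost its call without any of 7 libraries (-2.69 to -2.27), namely MMTVRANK luminal replicates 1 and 2, WT luminal replicates 2 and 3, MMTVRANK basal replicates 1 and 3, and WT basal replicate 3. Ei24 gained a call without WT luminal replicates 1 or 3, MMTVRANK basal replicate 3 or WT basal replicate 1 (0.57 to 0.71), and Pmaip1 without WT basal replicate 2 (2.25).

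Between MMTVRANK luminal and WT luminal cells none of the 32 members passed the test, where 0.252% of all genes were called, 0.0932% higher and 0.159% lower. At an unadjusted p under 0.05 there were 4 members, Trp53, Apaf1, Ckap2 and Gtse1, where 12% of all genes reached that level. The median log2 fold change of the members was 0.06, against 0.03 over all genes, with 18 positive and 14 negative. The 3 MMTVRANK luminal libraries all lay above the 3 WT luminal libraries in 6 members and below them in 2, where 16.9% of all genes separated, 10.1% above and 6.82% below.

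**Figure D4:**
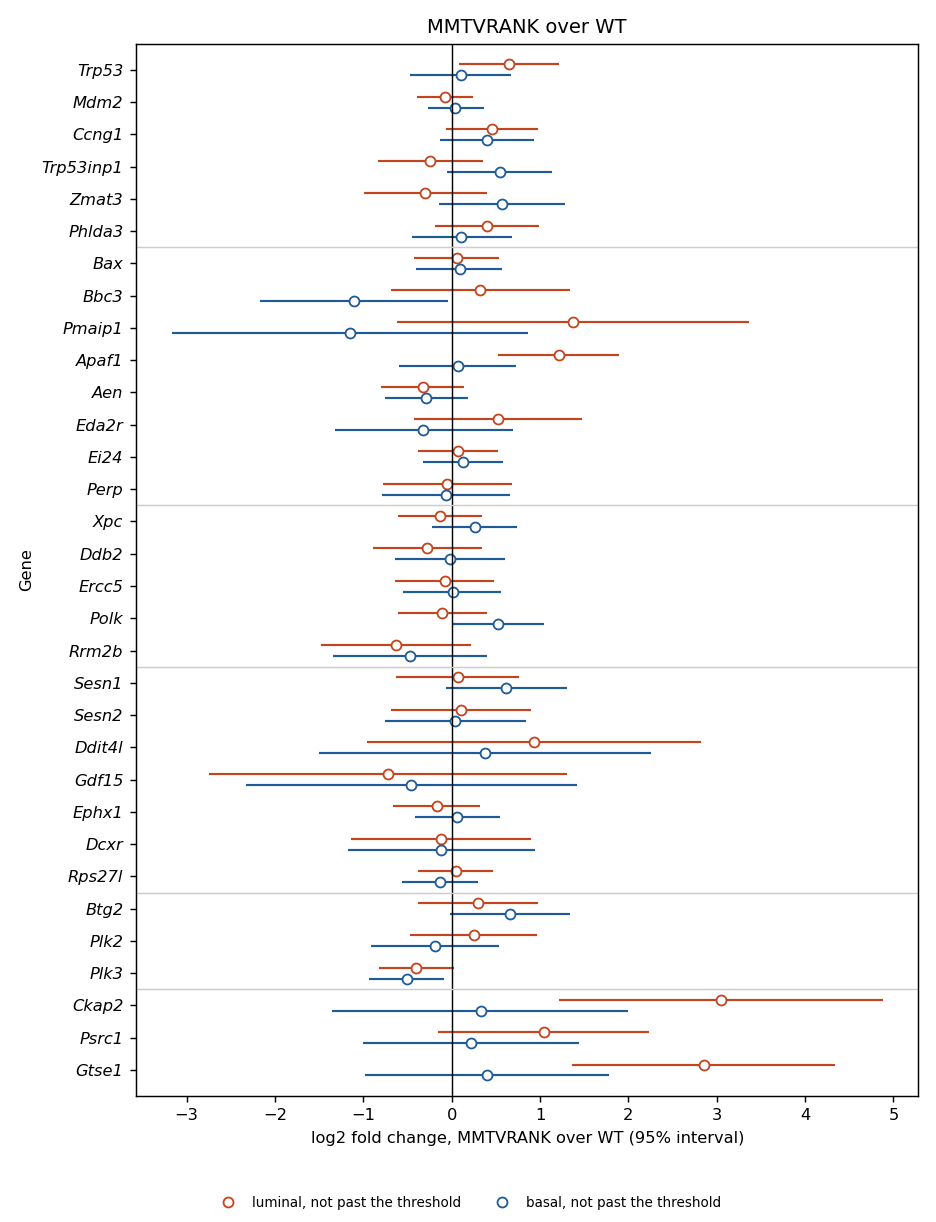
Points are MMTVRANK minus WT log2 fold changes of the 32 members with 95% intervals, in luminal and in basal cells. Ckap2 and Gtse1 lie highest in luminal cells at 3.05 and 2.85, and no member passed edgeR's test in either population.

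The largest luminal genotype differences of the members were those of Ckap2 and Gtse1, from the spindle and G2/M genes. Psrc1, of the same group, had a log2 fold change of 1.04, below Pmaip1 (1.37) and Apaf1 (1.21). Ckap2, a microtubule-binding spindle protein, had 47.4, 13.5 and 30.4 CPM in MMTVRANK luminal libraries, against 2.32, 5.25 and 3.43 CPM in WT luminal libraries. Gtse1, a microtubule-associated protein of G2 that in human cells moves p53 out of the nucleus, had 16.1, 5.24 and 11.4 CPM in MMTVRANK luminal libraries, against 1.87, 2.34 and 0.318 CPM in WT luminal libraries. Psrc1, a microtubule-binding spindle protein, had 43.7, 34.4 and 29.1 CPM in MMTVRANK luminal libraries, against 17.3, 18.5 and 16.4 CPM in WT luminal libraries. All MMTVRANK luminal libraries lay above all WT luminal libraries in the 3 genes. The log2 fold changes were 3.05 (95% interval 1.22 to 4.88, adjusted p = 0.154) for Ckap2, 2.85 (1.36 to 4.34, adjusted p = 0.105) for Gtse1 and 1.04 (-0.16 to 2.23, adjusted p = 0.518) for Psrc1. DESeq2 and the fit with no count filter called Ckap2 and Gtse1, and Ckap2 was also called without WT basal replicate 3 (3.05, adjusted p = 0.0409).

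The same luminal libraries differed in a list of 15 proliferation genes, all of which were higher in every MMTVRANK luminal than in every WT luminal library, at a median of 2.63 on the log2 scale, although none was called. Their summed level was 2180, 926 and 1990 CPM in MMTVRANK luminal libraries, against 252, 456 and 136 CPM in WT luminal libraries. Mki67, the proliferation antigen, had 911, 402 and 878 CPM in MMTVRANK luminal libraries, against 72.5, 161 and 30.1 CPM in WT luminal libraries. Ckap2 and Gtse1 were lowest among MMTVRANK luminal libraries in replicate 2, the library with the lowest proliferation sum, whereas Psrc1 was lowest in replicate 3. In basal cells, whose proliferation sums were 1210, 961 and 579 CPM in MMTVRANK and 419, 1160 and 104 CPM in WT libraries, Ckap2 had 33.2, 20.6 and 14.2 CPM in MMTVRANK libraries, against 18.7, 33.4 and 1.97 CPM in WT libraries. The basal groups overlapped for Ckap2, Psrc1 and Gtse1, with log2 fold changes of 0.22 to 0.40. The part of proliferation in the spindle genes was not tested.

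**Figure D5:**
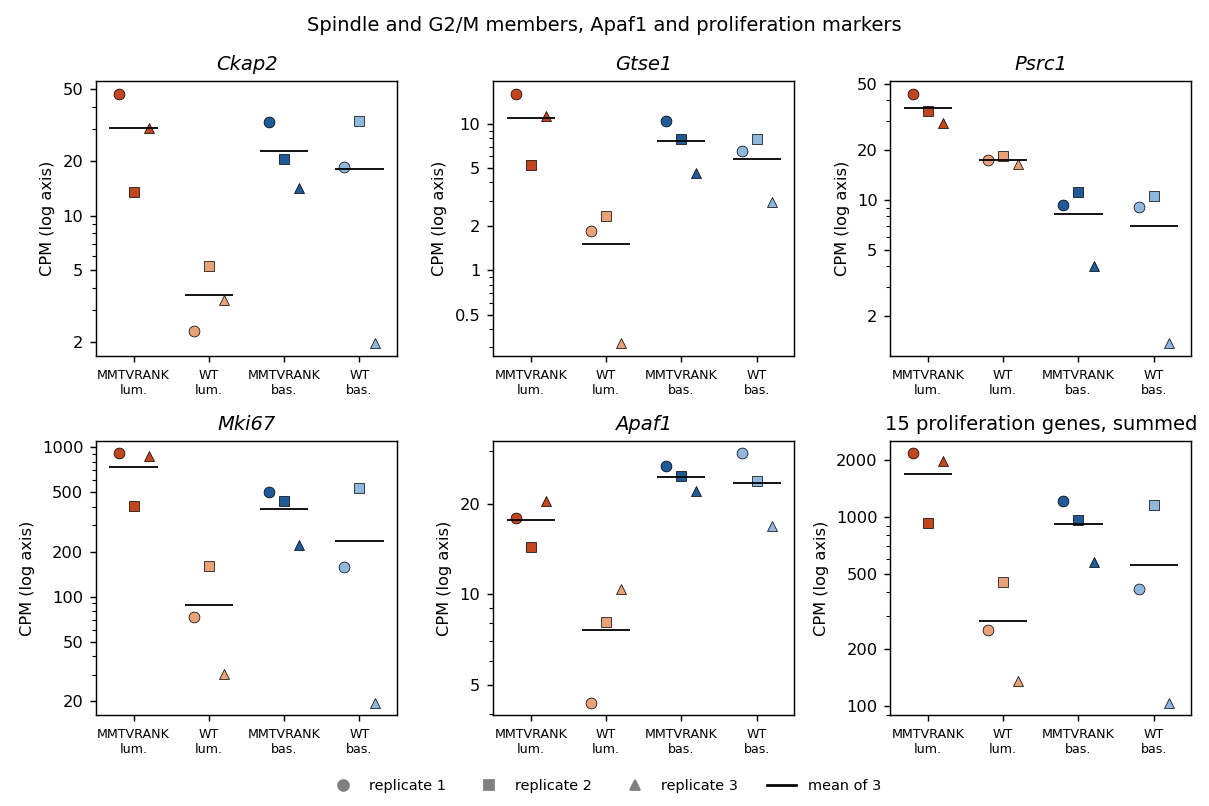
Each point is 1 library's level in CPM on a log axis for the spindle and G2/M members, Apaf1, Mki67 and the sum of 15 proliferation genes, in the 4 groups with a bar at each mean. In luminal cells the 3 MMTVRANK libraries lie above the 3 WT libraries for Ckap2, Psrc1 and Gtse1; in basal cells the genotypes overlap.

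These 3 genes also differed in their population contrast. Psrc1 was higher in luminal cells by 2.12 (SE 0.57, adjusted p = 0.0131) in MMTVRANK cells, a call that ended without MMTVRANK basal replicate 3 (1.80), and by 1.31 (adjusted p = 0.0869) in WT cells. Ckap2 and Gtse1 fell in WT luminal against WT basal cells (-2.30, SE 0.81, adjusted p = 0.0448, and -1.94, SE 0.67, adjusted p = 0.0378) and had values of 0.43 and 0.51 in MMTVRANK cells, not called. Both WT calls were fragile: Ckap2 lost its call without any library except MMTVRANK luminal replicate 2 and WT basal replicate 3 (-2.63 to -1.49), and Gtse1 without WT luminal replicates 1 or 3, MMTVRANK basal replicate 2 or WT basal replicates 1 or 2 (-2.12 to -1.44). The test of the difference between the luminal and the basal genotype effects called no member, where 0.00548% of all genes were called, and 3 members had an unadjusted p under 0.05, where 7.73% of all genes did: Ckap2 (2.72), Gtse1 (2.45) and Apaf1 (1.14).

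Trp53 itself had 57.7, 67.6 and 104 CPM in MMTVRANK luminal libraries, against 56.5, 38.1 and 51.1 CPM in WT luminal libraries. The MMTVRANK libraries were all higher, but the lowest of them and the highest WT library were close, and the log2 fold change of 0.65 (SE 0.26, 95% interval 0.08 to 1.22) did not pass (adjusted p = 0.336). Without MMTVRANK luminal replicate 3, the library with the high leukocyte sum, it was 0.32. Apaf1 also separated, with the values given above, by 1.21 (SE 0.31, 95% interval 0.52 to 1.89, adjusted p = 0.128), and DESeq2 and the unfiltered fit called it. Pmaip1, which encodes the BH3-only protein NOXA, had the highest within-group spread of the members. It had 6.26, 13.8 and 43.0 CPM in MMTVRANK luminal libraries, against 3.44, 7.38 and 13.5 CPM in WT luminal libraries. The groups overlapped, and the log2 fold change of 1.37 (95% interval -0.62 to 3.36) became 0.27 without MMTVRANK luminal replicate 3; the unfiltered fit called it (1.36, adjusted p = 0.0344). The part of leukocyte RNA in Trp53 and Pmaip1 was not tested.

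The other members that separated the luminal genotypes did so narrowly. Ddit4l was higher in all MMTVRANK luminal libraries (0.93, SE 0.87, adjusted p = 0.808). Rrm2b was lower in all of them, at 19, 14.3 and 14.1 CPM against 30.8, 23.1 and 19.5 CPM in WT luminal libraries (-0.63, SE 0.39, adjusted p = 0.608). Aen, an exonuclease of apoptosis, was lower too (-0.33, SE 0.21, adjusted p = 0.635). Several textbook targets had intervals that spanned 0. Mdm2 differed by -0.08 (95% interval -0.39 to 0.24), and the intervals were -0.43 to 0.54 for Bax and -0.38 to 0.47 for Rps27l. Further from 0 were Ccng1 at 0.46 (-0.07 to 0.98) and Phlda3 at 0.4 (-0.19 to 0.99). Trp53inp1 at -0.24 (-0.83 to 0.35) and Zmat3 at -0.3 (-0.99 to 0.4) lay on the other side.

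Between MMTVRANK basal and WT basal cells none of the 32 members passed, where 0.00548% of all genes were called, and 3 had an unadjusted p under 0.05, where 5.41% of all genes did. The median log2 fold change was 0.06, against 0.00 over all genes. The groups separated for 3 members, 1 above and 2 below, where 11.1% of all genes separated, 6.6% above and 4.52% below. Polk had 23.0, 20.3 and 21.2 CPM in MMTVRANK basal libraries, against 15.6, 15.7 and 13.5 CPM in WT basal libraries (0.52, 95% interval 0.01 to 1.04, adjusted p = 0.901). Plk3, a stress-activated kinase, had 82.9, 85.6 and 81.5 CPM in MMTVRANK basal libraries, against 111, 120 and 126 CPM in WT basal libraries (-0.51, 95% interval -0.94 to -0.09, adjusted p = 0.854). Bbc3 was also lower in all MMTVRANK basal libraries (-1.11, 95% interval -2.17 to -0.04, adjusted p = 0.901). The MMTVRANK basal libraries were tightly grouped for Polk and Plk3 and lay outside the WT range.

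Genes that act on p53 or share its targets were read from lists of 26 regulators and 23 other targets. No regulator was called between genotypes in either population, where 0.252% of all genes were called in luminal and 0.00548% in basal cells. At an unadjusted p under 0.05 there were 8 of the 26 in luminal cells, where 12% of all genes reached that level. The luminal genotypes separated in 8 regulators, 7 higher and 1 lower in MMTVRANK, where 16.9% of all genes separated. In basal cells 2 had an unadjusted p under 0.05 and 2 separated, where the shares over all genes were 5.41% and 11.1%. Between populations 10 of the 26 were called in MMTVRANK cells (5 higher and 5 lower in luminal cells) and 11 in WT cells (4 higher and 7 lower). These are 38.5% and 42.3% of the list, near the 33.2% and 38.1% of all genes called. Trp63 and Trp73, the p53 family members of basal epithelium, had the largest falls: the luminal over basal log2 fold change of Trp63 was -7.84 in MMTVRANK and -9.12 in WT cells. Trp73 had 0 counts in the MMTVRANK luminal libraries, which at a floor of 3 counts over the group puts it at least 177-fold lower than in MMTVRANK basal cells. Cdkn2a, which encodes the Mdm2 inhibitor ARF and the CDK inhibitor p16, was higher in luminal cells by 5.21 in MMTVRANK and 2.76 in WT cells. The WT call of Cdkn2a ended without WT basal replicate 3 (2.41). Its mean was 8.11 CPM in MMTVRANK luminal and 2.93 CPM in WT luminal libraries. In MMTVRANK basal and WT basal libraries it was 0.208 and 0.421 CPM, so these fold changes rest on very low basal levels. Hipk2, a kinase that activates p53, was higher by 1.95 in MMTVRANK and 2.27 in WT cells. Sirt1, which deacetylates p53, was lower, at -0.88 in MMTVRANK and -1.07 in WT cells.

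Of the 22 other targets tested, 10 were called between MMTVRANK luminal and MMTVRANK basal cells (4 higher, 6 lower). Between WT luminal and WT basal cells 13 were called (4 higher, 9 lower). These are 45.5% and 59.1% of those tested, where 33.2% and 38.1% of all genes were called. Cd82, a tetraspanin, was higher in luminal cells by 4.43 in MMTVRANK and 4.42 in WT cells. Pltp, a phospholipid transfer protein, was lower in luminal cells, at -5.36 in MMTVRANK and -7.46 in WT cells. Cdkn1a, the CDK inhibitor p21, had 59.9, 49.0 and 36.9 CPM in MMTVRANK luminal libraries, against 53.4, 59.2 and 47.7 CPM in WT luminal libraries. It had 48.8, 38.1 and 42.6 CPM in MMTVRANK basal libraries, against 85.6, 100 and 87.4 CPM in WT basal libraries. The luminal genotypes overlapped (-0.14). In basal cells all MMTVRANK libraries were lower (-1.08, SE 0.19, adjusted p = 0.246), a difference that DESeq2 and the unfiltered fit called. Between basal genotypes those settings called 66 and 349 of all genes, against 1 in edgeR's filtered fit. Between luminal genotypes 8 of the 22 had an unadjusted p under 0.05, where 12% of all genes did. The luminal genotypes separated in 10 of them, 3 higher and 7 lower in MMTVRANK, where 16.9% of all genes separated. In basal cells 6 had an unadjusted p under 0.05 and 7 separated, where the shares over all genes were 5.41% and 11.1%. By adjusted p, 0.252% of all genes were called between luminal genotypes. Gadd45a, a growth-arrest and repair protein, was the 1 gene of this list called there (-1.17, SE 0.20, adjusted p = 0.0457). Its call ended without MMTVRANK luminal replicate 3, any WT luminal library, any MMTVRANK basal library or WT basal replicate 1 (-1.34 to -1).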

How the data were processed

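Mammary glands were digested, live cells sorted on CD24 and CD49f, and total RNA libraries made with a stranded low-input kit, per the labels' protocols. The deposited table holds raw read counts per gene symbol for 12 libraries and, per the file headers, the exon length of each gene, counted with featureCounts 1.5.2 on the GENCODE M17 annotation. STAR 2.6.1b and the GRCm38.p6 build are named in the submitters' processing notes. Total counts were 12459547 to 15069578, and every pair of the 66 library pairs differed beyond sampling noise (chi-square per degree of freedom at least 28.6).

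Counts were analysed in R 4.3.3 with edgeR 4.0.16: genes kept by filterByExpr (minimum count 10), trimmed-mean scaling, and 1 quasi-likelihood fit with the 4 groups of 3, giving 5 comparisons. P-values were Benjamini-Hochberg adjusted over all 18236 genes tested, with a threshold of 0.05; 15946 symbols had no count. All 32 members passed the filter. Unless another tool is named, every adjusted p and log2 fold change is from that fit; intervals are 95%, and SE is the standard error of the log2 fold change. The members and lists were chosen with earlier results of these data known. The rule for named genes was all 32 members, Tnfrsf11a, Cdkn1a and Mki67, up to 4 called genes per list, direction and comparison with the largest log2 fold changes, and up to 4 proliferation genes. The test was also run on simulated counts with known changes between luminal genotypes. That run held no population differences and put no changes in genes of low mean level, so it does not cover those. Alternatives were DESeq2 1.42.0, limma-voom (limma 3.58.1), DESeq2-type size factors in edgeR, no count filter, the compared libraries alone, each library left out, both WT replicate 2 libraries left out, and a replicate block. Same-numbered libraries deviated together in the luminal genotype pairs (correlations 0.525, 0.125 and 0.392 over 10082 genes), in the luminal and basal libraries of MMTVRANK (0.278, 0.144 and 0.199) and of WT (0.277, 0.168 and 0.343), but not in the basal genotype pairs (0.404, -0.0706 and 0.0915). Promoters came from RefSeq, and overlaps between genes from the GENCODE annotation.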

Additional observations from a re-analysis of the deposited data

How the results depend on the processing

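No called member changed direction in any alternative. Between luminal genotypes, DESeq2 called 3 members and the unfiltered fit 4, all higher in MMTVRANK; leaving out 1 library gave 0 to 1, the 1 being without WT basal replicate 3. The basal genotype count stayed at 0 in every alternative. The WT luminal against WT basal count was 12 with only the compared libraries, 12 without both WT replicate 2 libraries and 12 to 19 with 1 library left out; in MMTVRANK cells leaving out 1 library gave 12 to 18. The difference of genotype effects gave 2 members without the filter, where 776 of all genes were called, against 1 with the filter. The fit of only the compared libraries was not run for it. The replicate block gave 0 members between luminal genotypes, 0 between basal genotypes, 20 in WT (18 shared with the fit without it), 18 in MMTVRANK (17 shared) and 0 for the difference. Under that pairing WT Gdf15 and Psrc1 and MMTVRANK Ei24 were called and WT Ckap2 was not; it changed no other call. The cause of these shifts was not tested. Of the members not called between basal genotypes, 19 changed sign in some alternative, as did 10 between luminal genotypes. Over all genes, DESeq2 called 800 and the unfiltered fit 1353 between luminal genotypes, limma-voom 29 and the block 103. With 3 libraries a group and a common biological coefficient of variation of 0.45, genotype intervals of some members reach beyond 1 log2 unit. This held for low-count genes such as Gdf15 (-2.75 to 1.31 in luminal cells). It also held for well-counted genes such as Btg2 (-0.02 to 1.34 in basal cells) and Trp53 (0.08 to 1.22 in luminal cells).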
